A study of Homo sapiens with 18 samples.

Results

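The genes described here set the pace of the G1 phase of the cell cycle: the D-type cyclins CCND1, CCND2 and CCND3, the E-type cyclins CCNE1 and CCNE2, the cyclin-dependent kinases CDK4 and CDK2, and the CDK inhibitors CDKN1A, CDKN1B and CDKN2A. They were taken by gene symbol, as the rows of the count table whose Ensembl gene identifier carries one of these 10 names, out of 57736 genes in the table. All 10 passed the filter on low counts and are among the 17317 genes tested. The cells are labelled A1847, a human high-grade serous ovarian cancer line that expresses CARM1, an arginine methyltransferase that acts as a transcriptional coactivator. The 6 groups were cells wild type for CARM1 and XBP1 (control cells, WT), CARM1 knockout cells (koCARM1) and XBP1 knockdown cells (shXBP1), each left in the control condition (ctr, called vehicle here) or treated with 5 μg/ml tunicamycin (TM) for 8 h, with 3 libraries each and 18 in all. The study cloned 1 CARM1 guide into a lentiviral CRISPR plasmid and used 1 lentiviral shRNA against XBP1, a transcription factor of the ER stress response. Neither the labels nor its methods say whether the sequenced knockout cells were a single clone or whether the control cells carried a scramble vector. Tunicamycin blocks N-linked glycosylation, so that unfolded proteins accumulate in the endoplasmic reticulum.

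In G1, D-type cyclins activate CDK4 and its relative CDK6, which begin the phosphorylation of the retinoblastoma protein. E-type cyclins then activate CDK2, which completes it and releases E2F factors to switch on the genes of DNA replication. The products of CDKN1A (p21) and CDKN1B (p27) bind cyclin-CDK complexes and hold CDK2 in check, and the CDKN2A product p16 blocks CDK4 and CDK6. In cells under ER stress the PERK branch slows translation, and the short-lived cyclin D1 protein is lost, with arrest in G1. Ovarian cancers of the serous type often carry extra copies of CCNE1.

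The libraries held 9367462 to 13917212 counts (median 12899157.5). Levels are in CPM, counts scaled to one common library size after correction by TMM factors. They are compared between groups of libraries for one gene at a time, and never between genes. A call means an adjusted p of at most 0.05 from edgeR's quasi-likelihood test over all genes tested, and log2 fold changes carry the standard error (SE) of that fit. For a single gene, permuting 3 libraries against 3 exactly gives no p below 0.1, and it was not done. The labels number the replicates without naming separate cultures, so p-values measure the spread between these libraries, which may be technical. Since RNA was extracted from whole cultures, less mRNA per cell and fewer cells with that mRNA cannot be told apart. The targeted transcripts were lower in the libraries labelled for them, CARM1 by a log2 fold change of −1.17 in vehicle and XBP1 by −0.86. XBP1 was also lower in CARM1 knockout libraries with vehicle (−0.47, adjusted p = 0.00133), and not called there with tunicamycin (−0.06). CARM1 was higher in XBP1 knockdown libraries, by 0.22 with vehicle (adjusted p = 0.017) and 0.37 with tunicamycin (adjusted p = 0.000177). The CARM1 knockout libraries stood apart from all others: over the genes tested their log2 CPM correlated with the other 12 libraries at r = 0.73 to 0.775, against 0.961 to 0.987 between control and XBP1 knockdown libraries. Of 9 markers of an ovarian or Müllerian epithelial line, 4 exceeded 3 counts in every control library, 6 in every CARM1 knockout library and 4 in every XBP1 knockdown library, and their summed level was 311 to 487, 2250 to 2770 and 131 to 216 CPM. PAX8, a lineage factor of serous ovarian cancer, had 0 to 2 counts in control and knockdown libraries and 465 to 840 in CARM1 knockout libraries. MUC16 was at 0 in all 18 libraries and SOX17 at 0 to 1. WT1 had 0 to 2 counts in control libraries and 3 to 13 in CARM1 knockout libraries. KRT7 had 0 to 12 counts in control and 3576 to 5166 in CARM1 knockout libraries. The markers found in every control library were KRT18 (3279 to 5479 counts), KRT8 (700 to 896), EPCAM (22 to 52) and MECOM (15 to 23). In CARM1 knockout libraries these had 12965 to 18887, 6208 to 9436, 157 to 266 and 8 to 18 counts. PAX8, MUC16, SOX17 and WT1 were thus absent or nearly so from the control cells. PDGFRA, on the list of 3 fibroblast markers, had 2021 to 3004 counts in control, 2636 to 3140 in knockdown and 0 to 15 in CARM1 knockout libraries. COL1A1 of that list went the other way, with 103 to 259, 54 to 138 and 2205 to 6247 counts. DCN had 5 to 20, 1 to 11 and 0 to 2 counts, and the list summed to 172 to 221, 208 to 241 and 183 to 494 CPM. The 4 leukocyte markers summed to at most 3.55 CPM and the 2 endothelial markers in the table to at most 0.318 CPM in any library. Whether the knockout libraries come from the parental culture, a clone or another line is not settled by the labels. CARM1 loss and such an origin cannot be told apart in any knockout value below.

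In control cells, tunicamycin lowered every one of the 5 G1 cyclin transcripts and CDK2 and raised CDKN1B, while CDK4, CDKN1A and CDKN2A stayed short of the threshold. That made 1 member higher and 6 lower, where 22% of all genes tested were higher and 19.9% lower. In CARM1 knockout cells 4 members were higher (20.6% of all genes) and 5 lower (18.8%), and in XBP1 knockdown cells 1 was higher (19.2%) and 6 lower (19%), namely the members called in control cells, in the direction they had there. Without TMM factors the split of all genes called moved from 3808 higher and 3450 lower to 3049 and 4329 in control cells and from 3572 and 3264 to 2870 and 4054 in knockout cells, and no called member changed direction under any scaling tried. The median log2 fold change over the 10 members was −0.53 in control, −0.16 in CARM1 knockout and −0.40 in XBP1 knockdown cells, with 0 over all genes tested.

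**Figure D1:**
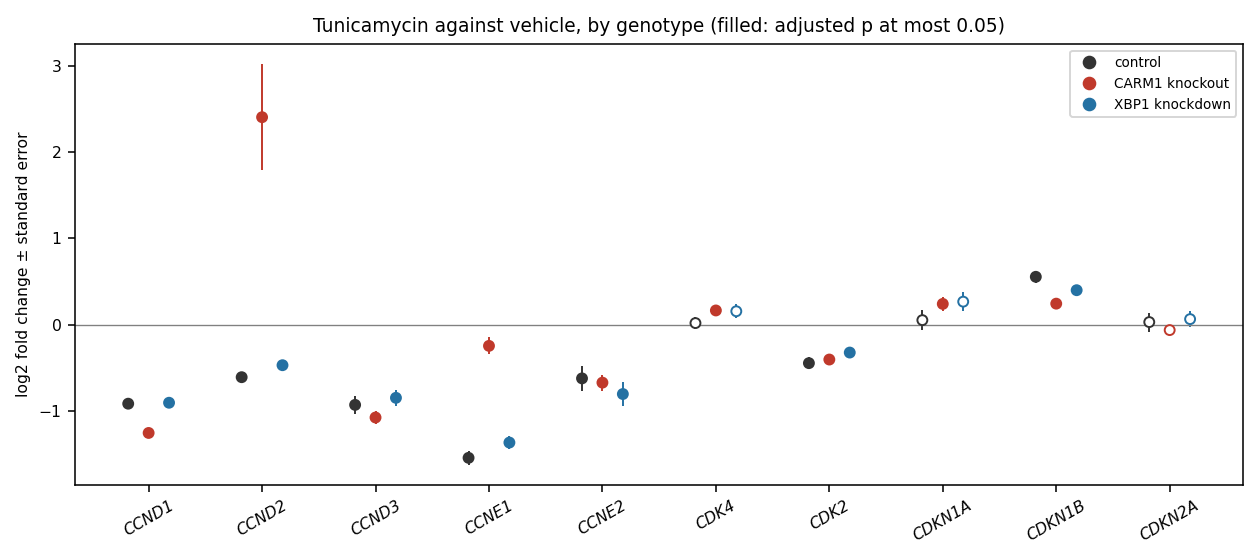
Log2 fold change of each of the 10 genes with tunicamycin against vehicle (vertical axis, with bars for the standard error) in control, CARM1 knockout and XBP1 knockdown cells, from 3 libraries per group. Filled points have an adjusted p of at most 0.05. The points of control and XBP1 knockdown cells lie close together for every gene, and those of the knockout lie away from them for CCNE1 (−0.25 against −1.55) and CCND2 (2.41 against −0.61).

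Against control cells in vehicle, CARM1 knockout cells had 5 members higher and 4 lower, with 37.5% of all genes tested higher and 36.9% lower, and with tunicamycin 6 higher and 2 lower, with 38.4% and 36.8%. At such a background a call alone says little about these genes, so that sizes are given with each. Library totals without TMM factors shifted the median of all genes in these comparisons to −0.20 and −0.18. XBP1 knockdown cells differed from control cells in 1 member with vehicle, which was higher (2.07% of all genes were higher and 3.03% lower), and in 3 members with tunicamycin, all higher (6.99% and 8.55%). The response to tunicamycin itself differed between CARM1 knockout and control cells for 4 members, 2 with a positive and 2 with a negative interaction term, where 10.5% and 12.4% of all genes had one. For all genes the split was 1814 to 2151, and it turned to 2175 to 1809 without TMM factors and 2081 to 1863 with upper-quartile factors. Between XBP1 knockdown and control cells it differed for 0 of the 10 by edgeR's quasi-likelihood test and 0 by DESeq2, and for 1 at an unadjusted p under 0.05, with 0.364% of all genes positive and 1.67% negative. For all genes this split was 63 to 290, and 103 to 222 with upper-quartile factors. The control libraries serve both genotypes, so the knockout and knockdown comparisons are not independent of each other.

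**Figure D2:**
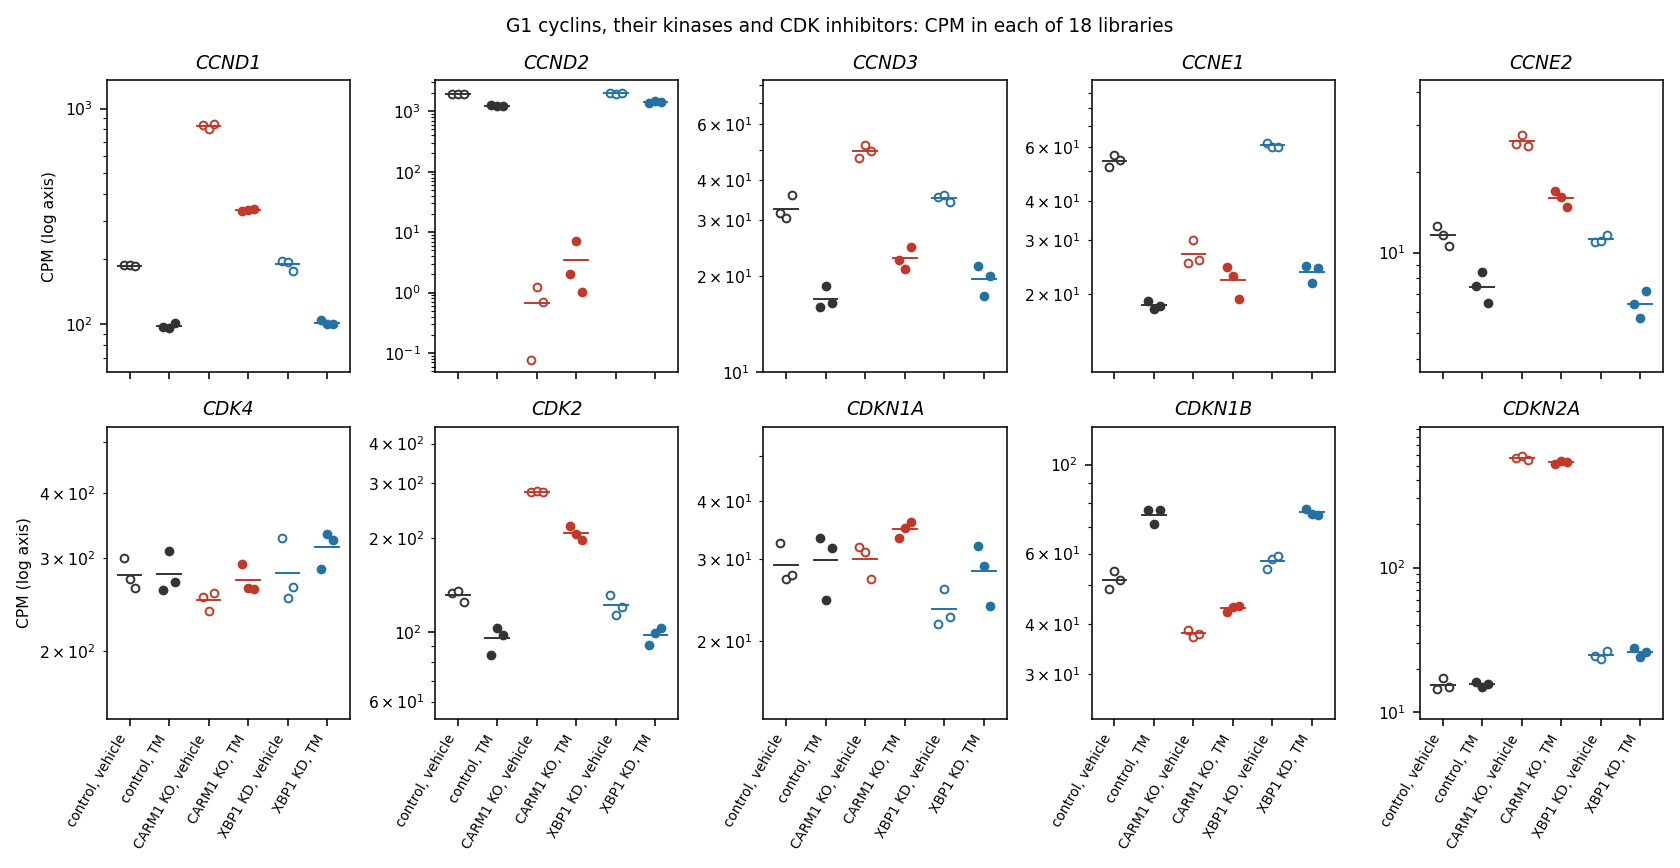
CPM of each of the 10 genes (vertical log axis, a scale of its own for each gene) in each of the 18 libraries, with open points for vehicle, filled points for tunicamycin and a line at the mean of each group of 3. CCND2 is near 0 in the CARM1 knockout libraries alone, and CDKN2A is at 521 CPM or more in those libraries and at 27.65 CPM or less in all others.

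CCND1 encodes cyclin D1, the D-type cyclin most tied to growth factor signalling. Its level was 188.5, 187 and 186 CPM in the 3 control libraries with vehicle and 97.3, 96.1 and 101 with tunicamycin. In CARM1 knockout libraries it was 834, 807.5 and 845 and 335, 338 and 342, and in XBP1 knockdown libraries 196, 195 and 177 and 105, 100 and 100.2. Each vehicle group lay above its tunicamycin group without overlap, and knockout cells with tunicamycin still exceeded control cells with vehicle. The log2 fold change with tunicamycin was −0.92 (SE 0.0551, adjusted p = 1.12e-09) in control, −1.26 (SE 0.0332, adjusted p = 3.68e-18) in knockout and −0.91 (SE 0.0538, adjusted p = 3.1e-09) in knockdown cells. In knockout cells CCND1 was 4.29-fold the control level with vehicle, or 2.10 (SE 0.0419, adjusted p = 6.73e-16) on the log2 scale, and 3.46-fold with tunicamycin (1.79, adjusted p = 2.57e-14). The fall in knockout cells was the steeper on the log2 scale, with an interaction term of −0.36 (SE 0.0578, adjusted p = 0.000109). In XBP1 knockdown cells CCND1 did not pass the test against control cells, with 95% intervals of the log2 fold change of −0.10 to 0.12 in vehicle and −0.06 to 0.16 with tunicamycin.

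CCND2 encodes cyclin D2, which activates the same kinases. It was at 1934, 1906 and 1890 CPM in control cells with vehicle and at 1274, 1226 and 1222 with tunicamycin. XBP1 knockdown cells had 2027, 1938 and 1970 and 1390, 1474 and 1441. The 6 CARM1 knockout libraries held 1, 15 and 6 counts with vehicle and 24, 91 and 13 with tunicamycin. The control libraries had 24994, 25866 and 28219 counts with vehicle and 15316, 14857 and 16086 with tunicamycin. Cyclin D2 mRNA was therefore at the edge of detection in every knockout library and abundant in the other 12. The log2 fold change of knockout against control cells was −11.53 (SE 0.147, adjusted p = 6.17e-18) with vehicle and −8.47 (SE 0.216, adjusted p = 3.25e-14) with tunicamycin, and its exact size rests on a handful of counts. Tunicamycin lowered CCND2 in control cells by a log2 fold change of −0.61 (SE 0.0447, adjusted p = 1.24e-08) and in knockdown cells by −0.47 (SE 0.0334, adjusted p = 2.21e-08). With tunicamycin the knockdown level exceeded that of control cells by 0.21 (SE 0.0376, adjusted p = 0.00114), and in the fit of all 18 libraries the adjusted p was 0.253.

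In knockout cells the few CCND2 counts were more with tunicamycin, 2.41 (SE 0.618, adjusted p = 0.0034), and the interaction term was 3.01 (SE 0.623, adjusted p = 0.00124). The 2 groups overlapped, however, and without replicate 2 of the knockout with tunicamycin, the library with 91 counts, the change was 1.24 with an adjusted p of 0.12 and the interaction 1.83 with an adjusted p of 0.00832. DESeq2 gave the change an adjusted p of 0.103. A further 65 genes had at least 500 counts on average elsewhere and under 1% of it in the knockout. Replicate 2 with tunicamycin held the most counts of these too, 1292 in sum or 0.779% of their level elsewhere, against 305 to 633 counts (0.184 to 0.382%) in the other 5 knockout libraries. The part of such low counts of absent genes in the CCND2 values was not tested. PARP11, the nearest tested gene before CCND2, was also lower in knockout cells (−9.37 on the log2 scale, adjusted p = 4.21e-13), as were TIGAR (−1.33) and FGF23 (−4.19) after it. Beyond them C12orf4 and RAD51AP1 did not pass the test (−0.07 and 0.11), and DYRK4 was lower (−0.48).

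CCND3, for cyclin D3, had 31.5, 30.4 and 35.96 CPM in control cells with vehicle and 15.97, 18.6 and 16.4 with tunicamycin. In knockout cells it had 46.9, 51.7 and 49.5 with vehicle and 22.6, 21.1 and 24.6 with tunicamycin. Knockdown cells had 35.5, 35.9 and 34.3 and 21.5, 17.3 and 19.95. In every genotype the vehicle libraries were all above the tunicamycin libraries. The log2 fold change with tunicamycin was −0.93 (SE 0.101, adjusted p = 1.22e-06) in control, −1.08 (SE 0.0772, adjusted p = 1.66e-10) in knockout and −0.85 (SE 0.0909, adjusted p = 2.07e-06) in knockdown cells. Neither interaction passed the test (−0.17, 95% interval −0.41 to 0.08, and 0.09, −0.18 to 0.35). Knockout cells had more CCND3 than control cells, by 0.55 (SE 0.0805, adjusted p = 1.59e-05) with vehicle and 0.43 (SE 0.0993, adjusted p = 0.00116) with tunicamycin. Of the 3 D-type cyclins, then, CCND1 and CCND3 were higher and CCND2 was nearly gone in the knockout libraries, and all 3 fell with tunicamycin in control and in knockdown cells.

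CCNE1 encodes cyclin E1, the partner of CDK2 at the entry into S phase, and it had the largest fall with tunicamycin among the members in control cells. Its level was 51.5, 56.5 and 54.2 CPM with vehicle and 18.96, 17.8 and 18.3 with tunicamycin, a log2 fold change of −1.55 (SE 0.0805, adjusted p = 1.91e-10). In XBP1 knockdown cells it went from 61.75, 60.2 and 60.1 to 24.7, 21.7 and 24.3, −1.37 (SE 0.0728, adjusted p = 8.87e-10). In CARM1 knockout cells it was at 25.2, 29.85 and 25.8 with vehicle and at 24.45, 22.9 and 19.3 with tunicamycin. The knockout with vehicle lay between the vehicle and the tunicamycin groups of the other genotypes and overlapped none of them. The further fall of −0.25 (SE 0.0973, adjusted p = 0.0487) lay at the threshold, and DESeq2 gave it an adjusted p of 0.0988. It was over 0.05 in 4 of the 6 fits that left out a library, those without replicate 2 (−0.17) or 3 (−0.27) with vehicle and without replicate 2 (−0.27) or 3 (−0.16) with tunicamycin. The responses of knockout and control cells differed by 1.28 (SE 0.129, adjusted p = 3.67e-07), a term that was called in every alternative run. Against control cells CCNE1 was lower in the knockout with vehicle, −1.05 (SE 0.08095, adjusted p = 1.01e-08). With tunicamycin it was higher by 0.28 (SE 0.102, adjusted p = 0.022), a call lost without TMM factors (0.11) and without control replicate 2 (0.25) or knockout replicate 1 (0.21) or 2 (0.26). In knockdown cells with tunicamycin it was 0.36 (SE 0.0964, adjusted p = 0.0177) above control cells, and this lost its call without control replicate 2 (0.34) or 3 (0.36) or knockdown replicate 1 (0.32) or 3 (0.34) with tunicamycin.

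Because CCNE1 carried the steepest fall, the 250 bases before its start in RefSeq are shown, on the forward strand of GRCh38.p14 at chr19:29811741-29811990, with GC boxes (GGGCGG on either strand) in capitals.
CCNE1: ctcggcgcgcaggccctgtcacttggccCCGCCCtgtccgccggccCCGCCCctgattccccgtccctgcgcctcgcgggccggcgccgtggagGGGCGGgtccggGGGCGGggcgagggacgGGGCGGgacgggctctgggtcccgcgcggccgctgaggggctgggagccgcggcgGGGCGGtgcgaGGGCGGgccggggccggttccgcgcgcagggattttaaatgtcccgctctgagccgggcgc
The window held 7 GC boxes, a motif found in 42.6% of 35116 promoter windows of the RefSeq table. Each of these windows was likewise the 250 bases before a start. It held none of the E2F motifs TTTCGCGC (0.439% of windows), TTTGGCGC (0.55%) and TTTCCCGC (1.39%). It also lacked the ER stress response element ERSE (0.074%), TGACGTGG (0.612%), TGATGNAA (3.14%) and ACGTCA (7.1%). All motifs were searched on both strands. Each TGACGTGG holds ACGTCA on the other strand, and each ERSE holds CCAAT. In all, 6 of the 10 genes had an entry, with 9 promoters, in which only GC boxes and CCAAT (32% of windows) matched. CCND1, CCND2, CCNE2 and CDK2 are named only. A match describes letters and not binding.

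CCNE2, for cyclin E2, had 12.5, 11.6 and 10.6 CPM in control cells with vehicle and 7.485, 8.42 and 6.46 with tunicamycin. CARM1 knockout cells had 25.5, 27.6 and 25.1 with vehicle and 16.99, 16.1 and 14.8 with tunicamycin. Knockdown cells had 10.99, 11.1 and 11.6 and 6.42, 5.71 and 7.20. The knockout libraries were higher than those of the other genotypes under the same treatment, and in every genotype the tunicamycin libraries were below the vehicle ones. The fall was −0.62 (SE 0.143, adjusted p = 0.00196) in control, −0.67 (SE 0.0918, adjusted p = 3.31e-06) in knockout and −0.81 (SE 0.139, adjusted p = 0.00024) in knockdown cells. The knockout exceeded control cells 2.19-fold with vehicle (1.13, SE 0.102, adjusted p = 6.63e-08) and 2.15-fold with tunicamycin (1.11, SE 0.127, adjusted p = 1.37e-06). The 2 E-type cyclins therefore went opposite ways in the knockout with vehicle, CCNE1 down and CCNE2 up. The interaction term of CCNE2 was −0.07 (95% interval −0.39 to 0.25), and knockdown cells did not differ from control cells past the threshold (−0.05, −0.28 to 0.18, with vehicle and −0.21, −0.54 to 0.13, with tunicamycin).

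CDK4, the kinase that D-type cyclins activate, lay between 238 and 334 CPM in all 18 libraries. It had 300.1, 274 and 264 CPM in control cells with vehicle and 261.5, 309.6 and 270.2 with tunicamycin. The knockout had 254, 238 and 258 with vehicle and 293, 264 and 263 with tunicamycin. Knockdown cells had 328, 252 and 265 and 286.5, 334 and 325. In the order of means each group overlapped the next, except that the knockout with tunicamycin lay wholly above the knockout with vehicle, the lowest group. The log2 fold change with tunicamycin was 0.02 in control cells (95% interval −0.12 to 0.15) and 0.15 in knockdown cells (−0.00 to 0.31). Neither passed the threshold. The rise in knockdown cells was called without a filter on low counts (adjusted p = 0.00999). It was also called without knockdown replicate 1 with vehicle (0.00295) or with tunicamycin (0.0476). In knockout cells CDK4 was higher with tunicamycin by 0.16 (SE 0.0452, adjusted p = 0.00582). The call was lost without TMM factors (adjusted p = 0.0676), in the fit of all 18 libraries (0.253) and without knockout replicate 1 with tunicamycin (0.0537). Against control cells with vehicle the knockout was at −0.21 (SE 0.0540, adjusted p = 0.00294), with an adjusted p of 0.0816 in the fit of all 18 libraries. With tunicamycin the knockdown was at 0.17 against control cells (95% interval 0.04 to 0.30, adjusted p = 0.103). This comparison was called without a filter (0.0108), with a replicate block (0.0206) and without control replicate 2 (0.0131) or knockdown replicate 1 (0.0253).

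CDK2, the kinase of E-type cyclins, had 133.5, 135 and 125 CPM in control cells with vehicle and 84.7, 103 and 98.1 with tunicamycin. In knockout cells it had 281, 283 and 279.7 with vehicle and 218.5, 206 and 196 with tunicamycin. Knockdown cells had 131.5, 114 and 120.1 and 90.9, 99.5 and 103. Each of the 6 knockout libraries was above every other library. Tunicamycin lowered CDK2 in all 3 genotypes, at −0.45 (SE 0.0717, adjusted p = 8.33e-05) in control, −0.41 (SE 0.0398, adjusted p = 2.7e-08) in knockout and −0.32 (SE 0.0645, adjusted p = 0.000817) in knockdown cells. No interaction passed the threshold (0.02, 95% interval −0.14 to 0.19, for the knockout and 0.13, −0.07 to 0.33, for the knockdown). CDK2 was 2.08-fold higher in knockout than in control cells with vehicle (1.05, SE 0.0468, adjusted p = 1.16e-11) and 2.18-fold higher with tunicamycin (1.12, SE 0.0672, adjusted p = 7.51e-10).

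**Figure D3:**
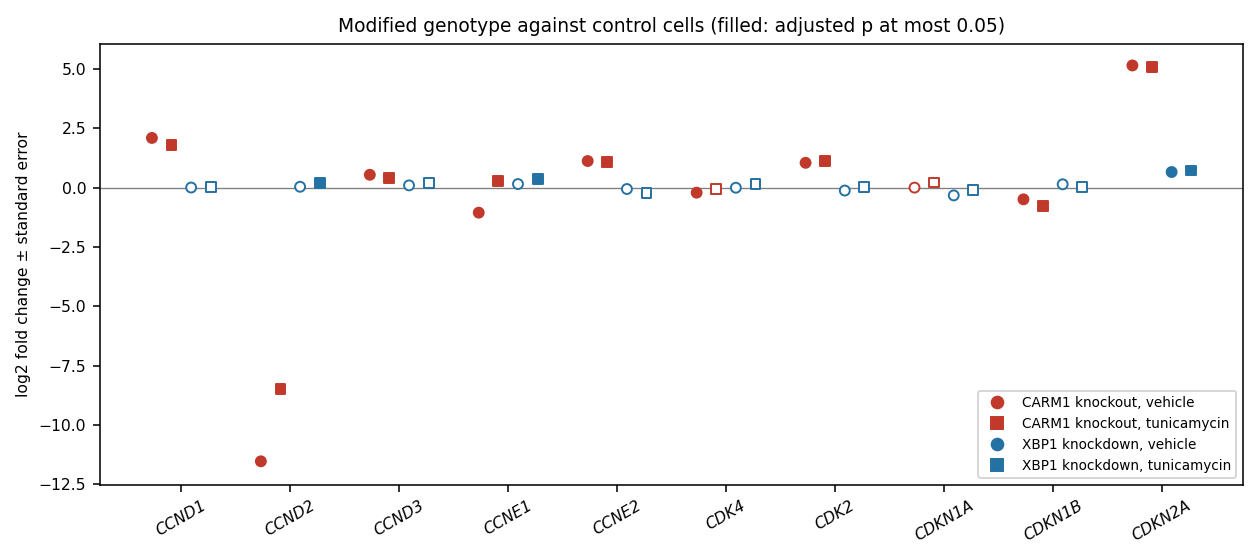
Log2 fold change of each of the 10 genes in CARM1 knockout (red) and XBP1 knockdown cells (blue) against control cells, with vehicle (circles) and with tunicamycin (squares), and bars for the standard error, which are often smaller than the points. Filled points have an adjusted p of at most 0.05. The knockout points reach from −11.53 for CCND2 to 5.16 for CDKN2A, and the knockdown points stay between −0.32 and 0.73.

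CDKN1A encodes p21, a CDK inhibitor of the same family as p27. It had 32.5, 27.3 and 27.8 CPM in control cells with vehicle and 33.4, 24.6 and 31.8 with tunicamycin. CARM1 knockout cells had 31.85, 31.2 and 27.25 with vehicle and 33.4, 35.0 and 36.2 with tunicamycin. Knockdown cells had 21.8, 25.97 and 22.5 and 32.02, 29.1 and 23.8. Most groups overlapped, and the spread within them was wide. With tunicamycin the log2 fold change was 0.05 in control cells (95% interval −0.17 to 0.27) and 0.27 in knockdown cells (0.05 to 0.48), neither past the threshold. In knockout cells it was 0.24 (SE 0.0775, adjusted p = 0.017). This call was lost without TMM factors (adjusted p = 0.0733), with DESeq2 (0.054), in the fit of all 18 libraries (0.172) and without replicate 3 with vehicle (0.0903) or with tunicamycin (0.0751). Against control cells, CDKN1A did not pass the test in any of the 4 comparisons, with log2 fold changes of 0.01 and 0.22 in the knockout and −0.32 and −0.08 in the knockdown. The knockout was called higher with tunicamycin under DESeq2 size factors (adjusted p = 0.0381), without a filter on low counts (0.0177), with 10 counts required in every library (0.0166) and without control replicate 1 (0.0141). The knockdown was called lower with vehicle when no filter was used (0.0287).

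CDKN1B encodes p27, which binds and inhibits the cyclin E-CDK2 complex, and it was the one member that rose with tunicamycin in all 3 genotypes. It had 48.8, 54.2 and 51.5 CPM in control cells with vehicle and 76.9, 71.2 and 76.95 with tunicamycin. The knockout had 38.7, 37.2 and 37.9 with vehicle and 42.9, 44.1 and 44.3 with tunicamycin. Knockdown cells had 54.9, 58.04 and 59.1 and 77.65, 75.4 and 75.1. Each tunicamycin group lay wholly above its vehicle group, and the 6 knockout libraries lay below all others. The rise was 0.55 (SE 0.06845, adjusted p = 5.45e-06) in control, 0.24 (SE 0.0653, adjusted p = 0.00482) in knockout and 0.40 (SE 0.0577, adjusted p = 4.66e-05) in knockdown cells. It was smaller in the knockout, with an interaction term of −0.33 (SE 0.0878, adjusted p = 0.00881). This difference missed the threshold without a filter on low counts (adjusted p = 0.0953) and without control replicate 1 (0.111) or 3 (0.0574) with vehicle or replicate 1 (0.0846) or 3 (0.0988) with tunicamycin. CDKN1B was lower in knockout than in control cells, at −0.49 (SE 0.0693, adjusted p = 1.18e-05) with vehicle and −0.77 (SE 0.0601, adjusted p = 1.68e-08) with tunicamycin. It was the only inhibitor gene here whose transcript rose while the cyclins fell in control and knockdown cells. Its upstream sequence is therefore shown for comparison with that of CCNE1, from RefSeq on the forward strand of GRCh38.p14 at chr12:12717118-12717367, with CCAAT and GC boxes in capitals.
CDKN1B: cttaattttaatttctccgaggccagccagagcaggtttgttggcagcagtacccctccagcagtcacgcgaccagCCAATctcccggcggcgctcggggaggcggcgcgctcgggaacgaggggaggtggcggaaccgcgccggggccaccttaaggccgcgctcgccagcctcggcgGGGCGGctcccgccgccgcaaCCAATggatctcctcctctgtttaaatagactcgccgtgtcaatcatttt
It held 2 CCAAT motifs and 1 GC box, and none of the E2F or ER stress motifs named above.

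CDKN2A was the member most different between genotypes on the upward side. Its row adds the transcripts for p16INK4a and p14ARF, which start at separate first exons and share their 3′ end, so that 3′ sequencing per gene does not separate them. It had 14.5, 17.2 and 14.9 CPM in control cells with vehicle and 16.3, 15.02 and 15.8 with tunicamycin. In knockout cells it had 575, 587 and 553 with vehicle and 521, 540.5 and 539 with tunicamycin. Knockdown cells had 24.55, 23.3 and 26.3 and 27.65, 24.1 and 26.1. The knockout libraries were far above all others, and the knockdown libraries were each above every control library. CDKN2A was 35.7-fold the control level in the knockout with vehicle (5.16, SE 0.0650, adjusted p = 5.91e-18) and 34.1-fold with tunicamycin (5.09, SE 0.0556, adjusted p = 1.03e-17). In the knockdown it was 1.59-fold with vehicle (0.66, SE 0.0981, adjusted p = 0.000954) and 1.66-fold with tunicamycin (0.73, SE 0.0979, adjusted p = 0.000101). It was the only member past the threshold in the knockdown with vehicle. Tunicamycin moved it in no genotype past the threshold, with log2 fold changes of 0.03, −0.06 and 0.06 in control, knockout and knockdown cells. In the knockout it was called lower without TMM factors (−0.12, adjusted p = 0.00396) and with upper-quartile factors (−0.11, adjusted p = 0.0124).

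Since transcripts from both CDKN2A starts are counted together, the 250 bases before each are shown, from RefSeq on the reverse strand of GRCh38.p14. The first lies at chr9:21995325-21995574, and the second, nearer the 3′ end of the gene, at chr9:21974858-21975107, with the GC box in capitals.
CDKN2A, first start: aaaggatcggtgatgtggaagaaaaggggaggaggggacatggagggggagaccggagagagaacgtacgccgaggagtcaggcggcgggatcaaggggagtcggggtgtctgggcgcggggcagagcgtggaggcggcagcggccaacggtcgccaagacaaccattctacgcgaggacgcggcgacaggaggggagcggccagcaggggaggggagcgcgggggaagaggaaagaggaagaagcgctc
CDKN2A, second start: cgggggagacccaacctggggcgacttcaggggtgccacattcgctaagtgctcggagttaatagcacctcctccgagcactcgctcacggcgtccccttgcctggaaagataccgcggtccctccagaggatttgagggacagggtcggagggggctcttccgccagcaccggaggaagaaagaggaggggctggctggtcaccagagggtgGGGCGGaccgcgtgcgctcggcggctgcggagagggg
The first window matched none of the motifs and the second held 1 GC box. The counts do not show which start was used in the knockout libraries.

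In GRCh37 the members lie on 6 chromosomes: CCND1 on chromosome 11 (69455924 to 69469242), CCND2, CDKN1B, CDK2 and CDK4 on chromosome 12 (from 4378937, 12838432, 56360565 and 58141510), CDKN1A and CCND3 on chromosome 6 (from 36644237 and 41902672), CDKN2A on chromosome 9 (21967751 to 21995300), CCNE1 on chromosome 19 (30302898 to 30315219) and CCNE2 on chromosome 8. Whether counting used the strand is not stated, and some members overlap a gene on the other strand, so that their reads may be shared. These were LTO1 at CCND1 (194 to 467 counts per library), NDUFAF6 and INTS8 at CCNE2 (137 to 268 and 182 to 370) and TSPAN31 and MARCHF9 at CDK4 (148 to 426 and 60 to 123). With fewer counts they were also PMEL at CDK2 (2 to 26), GPR19 at CDKN1B (6 to 36) and CDKN2B-AS1 at CDKN2A (0 to 25). For CCNE2, with 65 to 329 counts, the overlapping genes had as many counts as the member. The annotated pseudogene copies of CCND2, CCND3 and CDK4 had 0 or 1 count.

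For each member the 5 nearest tested genes on either side were read in the same comparison of knockout with control cells under vehicle. Around CCND1, 9 of the 10 neighbours were higher, with a median log2 fold change of 1.80, from FADD at 0.35 to MYEOV at 10.26, and FGF19 at 2.77 did not pass the test. In the comparison under tunicamycin 7 of them were higher and 2 lower, with a median of 0.75 and values from −4.78 to 11.36. Around CCND2, 3 were higher and 4 lower (median 0.02). Around CDKN2A, 5 were higher and 2 lower (median 0.12). Among them were CDKN2B, for the related inhibitor p15, at 5.78 and CDKN2B-AS1 at 3.39, while MTAP on the other side was at 0.47. CDK4 had 7 higher and 1 lower (median 0.97), CCNE1 5 and 2 (median 0.19), CDK2 5 and 3 (median 0.37), CCNE2 4 and 3 (median 0.23), CDKN1B 4 and 3 (median 0.24), CCND3 4 and 3 (median 0.02) and CDKN1A 2 and 5 (median −0.29). Over all genes tested 37.5% were higher and 36.9% lower under vehicle, so that 4 or 5 of 10 neighbours higher lay near that share. The counts of neighbours higher under vehicle stood above it for CCND1 and CDK4, as a description of 10 genes each.

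**Figure D4:**
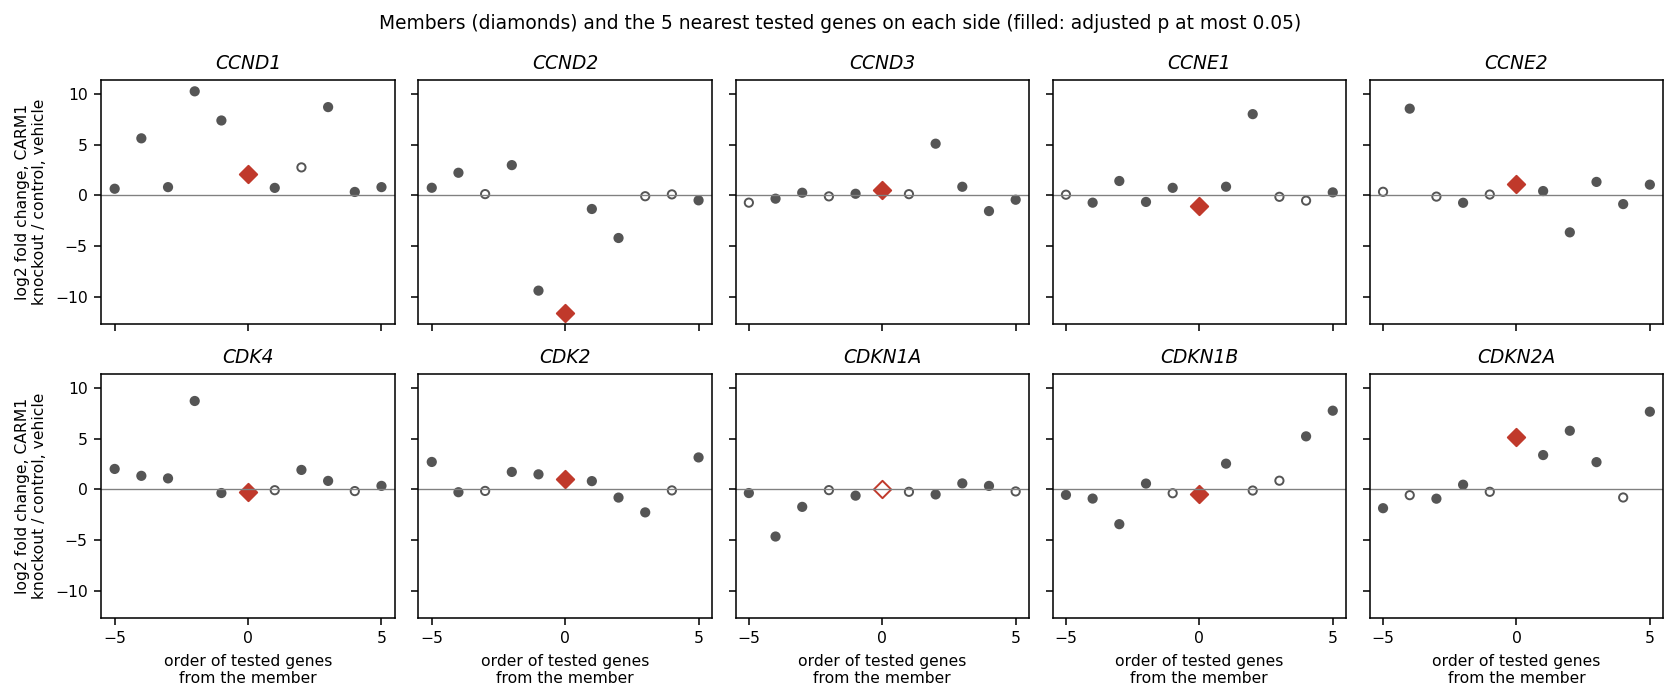
Log2 fold change of CARM1 knockout against control cells with vehicle (vertical axis) for each of the 10 genes (diamond) and the 5 nearest tested genes on each side in order along the chromosome (circles, horizontal axis in gene order). Filled symbols have an adjusted p of at most 0.05. The neighbours of CCND1 lie on the side of the gene itself, while CCND2 is low beside PARP11 with neighbours on both sides of 0.

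Of 24 other genes of G1/S control, 9 were higher and 11 lower with tunicamycin in control cells (median log2 fold change −0.13), 7 and 7 in knockout cells (−0.02) and 6 and 10 in knockdown cells (−0.17), where the median of all genes tested was 0. Over all genes 19.2 to 22% were higher and 18.8 to 19.9% lower in the 3 genotypes. CCNG2, an unconventional cyclin linked to cell cycle exit, rose in all 3 genotypes (1.51, 1.49 and 0.95), as did CDK7, the catalytic subunit of the CDK-activating kinase (0.58, 0.62 and 0.48). E2F2, an activating E2F, fell in control (−1.51), knockout (−0.50) and knockdown cells (−1.65), and SKP2, which targets p27 for degradation, did so too (−0.79, −1.82 and −0.72). In the knockout the SKP2 fall was the larger by an interaction term of −1.05 against control cells. With genotype, 10 of the 24 were higher and 10 lower in the knockout with vehicle and 12 and 12 with tunicamycin. Over all genes tested 37.5% were higher and 36.9% lower with vehicle, and 38.4% and 36.8% with tunicamycin. CDK6, the other kinase of D-type cyclins, was higher in the knockout by 5.14 and 5.72, and it was the 1 gene of this list called in the knockdown with vehicle (1.72, with 1.99 under tunicamycin). That count was 2 without knockdown replicate 1, 3 without a filter on low counts, and 4 without control replicate 3 or in the fit of all 18 libraries. RB1, the retinoblastoma gene, was lower in the knockout, at −1.88 and −2.01. Under tunicamycin the knockdown had 3 genes of the list higher and 1 lower, with 6.99% and 8.55% over all genes. A total of 6 had a positive and 5 a negative interaction term with the knockout, with 10.5% and 12.4% over all genes. With the knockdown edgeR called 0 interaction terms of this list and DESeq2 1, with 6 at an unadjusted p under 0.05.

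Of 20 listed E2F targets of S phase entry, 19 were tested. With tunicamycin 18 were lower and 1 higher in control cells (median −0.49), 18 and 1 in knockdown cells (−0.53) and 14 and 2 in knockout cells (−0.25). Over all genes 18.8 to 19.9% were lower and 19.2 to 22% higher in the 3 genotypes. PCNA, the sliding clamp of DNA polymerase, changed by −1.23 in control, −1.18 in knockdown and −0.69 in knockout cells. CDC6, which helps load the replicative helicase, was higher in every genotype, by 1.62 in control, 1.13 in knockdown and 1.53 in knockout cells. In the knockout 10 of the 19 had a positive interaction term and 0 a negative one by edgeR and by DESeq2 (median 0.23, with −0.01 over all genes, and 12 against 0 at an unadjusted p under 0.05), led by MCM4 (0.73), CDT1 (0.72) and TK1 (0.62), with 3 left at a change of at least 1.5-fold. Over all genes 10.5% had a positive and 12.4% a negative term with the knockout. At a change of at least 1.5-fold 882 of all 17317 genes had a positive and 1059 a negative one. The share of all genes at an unadjusted p under 0.05 was not taken. For the knockdown 1 was called, CDC6 (−0.48), with 0.364% positive and 1.67% negative over all genes. With vehicle, 13 of the 19 were lower and 2 higher in the knockout than in control cells (median −0.44), and with tunicamycin 10 and 7 (−0.33). Over all genes 36.9% were lower and 37.5% higher with vehicle, and 36.8% and 38.4% with tunicamycin. In the knockdown with vehicle edgeR called 0 of the 19 and DESeq2 1, with 4 at an unadjusted p under 0.05. Without control replicate 3 edgeR called 3 higher and 1 lower, without knockdown replicate 3 it called 1, and without a filter on low counts 2. With tunicamycin 7 were higher and 2 lower (0.09), with 6.99% and 8.55% over all genes.

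**Figure D5:**
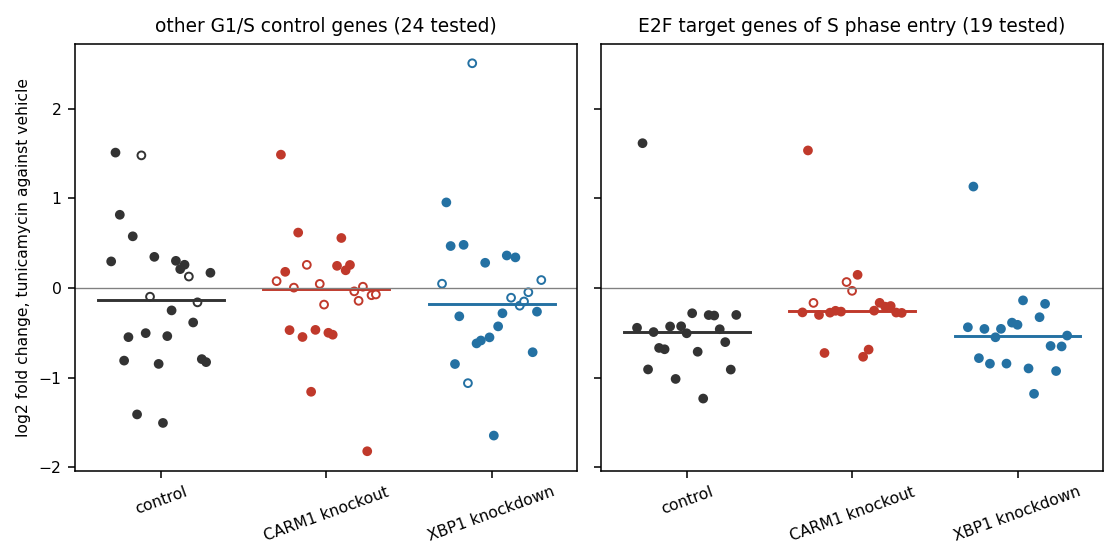
Log2 fold change with tunicamycin against vehicle (vertical axis) of each gene of the G1/S control list and of the E2F target list, in control, CARM1 knockout and XBP1 knockdown cells, with a line at the list median and filled points for an adjusted p of at most 0.05. The E2F targets lie below 0 save CDC6 in control and knockdown cells, with medians of −0.49 and −0.53, while the other G1/S control genes lie on both sides of 0, with medians of −0.13 and −0.17.

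The order of the 6 groups sorted the members by genotype and by treatment to different degrees. For CCND1 the order was knockout with vehicle, knockout with tunicamycin, then the 2 vehicle groups of knockdown and control cells, which overlapped, and their 2 tunicamycin groups, which also overlapped. CDK2 and CCNE2 followed the same order, but for control and knockdown groups of one treatment, which overlapped and changed places, and the means of CCND3 and CCNE1 placed all vehicle groups above all tunicamycin groups. In the order of CDKN1A means only the highest group, knockout with tunicamycin at 34.8 ± 1.40 CPM (SD, n = 3), did not overlap the next, knockout with vehicle at 30.1 ± 2.49. The genes whose log2 CPM followed a member most closely over the 18 libraries, out of 9523 whose log2 CPM averaged 3 or more, were LASP1 for CCND1 (r = 0.994), UBB and PDGFRA for CCND2 (0.998 and 0.997) and SUMO3 for CDK2 (0.993). They were SNRPF for CCNE1 (0.979), FRA10AC1 for CDKN1B (0.992) and PFKP for CDKN2A (0.998), whereas for CDKN1A the closest, WRN, reached 0.807. These libraries share their groups and fall into knockout and other libraries, so that such an r follows that split. Over the 12 control and knockdown libraries alone the closest genes were others: HSPA8 for CCND1 (0.995), WDR76 for CCND2 (0.996), KANK2 for CCNE1 (0.997) and H2BC12 for CDKN2A (0.957).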

How the data were processed

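RNA of A1847 cells was sequenced as 75 nt single reads from 3′ mRNA-seq libraries (Lexogen), in 3 replicates of 6 groups taken from the labels. Reads were aligned to hg19 with bowtie2. What the authors deposited are RSEM's expected counts for Ensembl genes (version 1.2.3 per the submitters' processing notes), given as whole numbers and not normalized. The Ensembl release and the use of strand are not given in the sources used here. All 18 columns were matched to samples. Of 57736 identifiers, 55501 had a symbol and a position in GRCh37. The members and gene lists were chosen with earlier results of these data known. The 10 members were named in every comparison; other genes were named as the 3 highest and 3 lowest called genes of a list, the 3 most correlated genes, or the 5 nearest tested genes on each side, and neighbours, marker genes and genes absent from the knockout were picked out after their values were seen.

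The counts were analysed in R 4.3.3 with edgeR 4.0.16: filterByExpr with a minimum count of 10 over all libraries, TMM normalization, quasi-likelihood F tests on the groups compared, and Benjamini-Hochberg adjustment over 17317 genes at 0.05. The SE was taken as |log2 fold change|/√F, and log2 CPM used a prior count of 2. Interactions were fitted over 4 groups. Replicate pairs differed by chi-square per degree of freedom of 1.84 to 6.89 over genes with at least 20 counts, so that no pair agreed within counting error. Alternatives were other scalings, DESeq2 1.42.0, other filters, a replicate block, one fit of all libraries, other thresholds and each library left out. Counts for the lists and for all genes under these alternatives, and the correlations over 12 libraries were chosen after seeing the data. The edgeR and DESeq2 fits of a pair of groups and the edgeR fit of an interaction were also run on simulated counts. Promoter sequences came from a RefSeq table of GRCh38.p14, which was used for letters and not for the GRCh37 positions. Per-library totals of 9367462 to 13917212 counts set the precision, which for members under 100 counts is low. One of the gene lists tested is not reported here.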

Additional observations from a re-analysis of the deposited data

Results flagged for a closer look

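The response to tunicamycin of 4 members differed between CARM1 knockout and control cells by the interaction term of edgeR's quasi-likelihood test. For CCNE1 the term was 1.28, a steep fall in control cells and a smaller one, from a lower vehicle level, in the knockout. For CCND2 it was 3.01, from a fall in control cells and 24, 91 and 13 counts against 1, 15 and 6 in the knockout libraries. For CCND1 it was −0.36, a steeper fall in the knockout, and for CDKN1B −0.33, a smaller rise. Among all genes tested 10.5% had a positive and 12.4% a negative term. The groups of 3 libraries were too small for a search for single samples that lie apart.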

How the results depend on the processing

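No called member changed direction under any alternative, and of 425 values of called members recomputed with all libraries 414 kept their call, while 19 of 312 lost it where a library was left out. Of values short of the threshold, 11 of 375 and 8 of 348 gained a call, all of CDK4, CDKN1A or CDKN2A. A required change of at least 1.5-fold left 4 members called with tunicamycin in knockout cells and 4 in knockdown cells. It left 1 in the knockdown with tunicamycin against control cells and 2 interactions with the knockout. Of all 17317 genes tested it left 2415, 2929, 714 and 1941 called in these comparisons, in that order. Without a filter on low counts 2 members were called in the knockdown with vehicle, and 1378 of all genes. Fewer pass by construction at the 1.5-fold limit, and the cause of the change without a filter was not tested. Leaving out 1 library gave 7 to 9 called members with tunicamycin in knockout cells, 7 to 8 in knockdown cells, 7 to 9 in knockout against control cells with tunicamycin, 2 to 3 in knockdown against control cells with tunicamycin and 3 to 5 interactions with the knockout. Over all genes the calls were 6042 to 6283, 5788 to 6151, 12428 to 12770, 1523 to 2426 and 3425 to 4083, in the same order. CCND2 was not tested where 10 counts in every library were required.

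Only values short of the threshold changed sign. With library totals alone they were CDK4 (−0.075), CDKN1A (−0.040) and CDKN2A (−0.063) with tunicamycin in control cells, CDKN1A in the knockout with vehicle (−0.16), and CCND1 (−0.0013) and CDK4 (−0.0088) in the knockdown with vehicle, and with upper-quartile factors the same values were −0.045, −0.011, −0.034, −0.028, −0.00058 and −0.0079. CDK4 also did so where 10 counts in every library were required (0.021 in the knockout with tunicamycin, −0.0037 in the knockdown with vehicle), and CCNE2 without a filter (0.0023 as interaction with the knockout). Leaving out 1 library moved values across 0 with tunicamycin in control cells for CDK4 (−0.065 to 0.073), CDKN1A (−0.047 to 0.17) and CDKN2A (−0.016 to 0.11), in the knockout for CDKN1A with vehicle (−0.035 to 0.11) and CDK4 with tunicamycin (−0.084 to 0.038), in the knockdown with vehicle for CCND1 (−0.013 to 0.060), CCNE2 (−0.11 to 0.0079) and CDK4 (−0.12 to 0.077) and with tunicamycin for CDK2 (−0.046 to 0.094), CDKN1A (−0.20 to 0.032) and CDKN1B (−0.016 to 0.041), and as interactions for CCNE2 (−0.11 to 0.087), CDK2 (−0.016 to 0.14) and CDKN2A (−0.13 to 0.0064) with the knockout and CCND1 (−0.029 to 0.043) and CDKN2A (−0.038 to 0.089) with the knockdown.

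Replicate numbers did not pair the libraries: deviations of libraries with 1 number correlated at −0.252 to 0.244 over 45 pairs, against −0.229 to 0.317 for other numbers. With a replicate block, CDK4 in the knockdown went to −0.0035 with vehicle and was called with tunicamycin (0.17, adjusted p = 0.0206), and no other call of a member changed. For all genes, calls in the knockdown with vehicle went from 883 to 1378 without a filter, 1420 in one fit of all libraries, 377 at an FDR of 1% and 435 to 574 without control replicate 1 or 2 or knockdown replicate 2 or 3. Of the lists, E2F targets called with tunicamycin went from 19 to 9 in control, from 16 to 4 in knockout and from 19 to 9 in knockdown cells at a change of at least 1.5-fold. Over all genes the same limit took calls from 3808 higher and 3450 lower to 2011 and 1650 in control cells. In knockout cells it took them from 3572 and 3264 to 1357 and 1058. For knockdown cells they went from 3333 and 3297 to 1533 and 1396. Depth limits CCND2 in the knockout and, with 65 to 329 counts, CCNE2.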
